A study of Mus musculus with 13 samples.

Results

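The genes for mitochondrial ribosomal proteins were followed through meiotic maturation in single mouse oocytes. They were taken as every symbol of the count tables that starts with Mrpl or Mrps and a number, which gave 78 of 18939 genes. Of these, 51 encode proteins of the large ribosomal subunit and 26 proteins of the small subunit. The remaining gene, Mrps36, carries the name, but its product is now known as a subunit of the 2-oxoglutarate dehydrogenase complex, and it is described on its own below. Levels were measured by SMART-seq2 RNA sequencing of 13 single oocytes. Oocytes at the germinal vesicle (GV) stage came from juvenile C57BL/6 females primed with PMSG. Every oocyte was injected with mRNA for FBL–GFP, a nucleolar reporter, and H2B-mCherry, a chromatin reporter. Each was held at the GV stage for 6 h with Cilostamide, and no group went without these injections. The pattern of FBL–GFP then sorted the oocytes into the NSN type, whose chromatin does not surround the nucleolus, and the SN type, whose chromatin does. The 4 groups were 3 NSN GV oocytes, 3 SN GV oocytes, 3 NSN-MII oocytes and 4 SN-MII oocytes, where the last pair of groups had been released from Cilostamide and matured in culture to metaphase II (MII). The labels do not say how many females gave the oocytes, so p-values measure the spread between single oocytes, which may be of 1 animal.

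Mitochondria carry their own ribosome, which makes the few proteins encoded by mitochondrial DNA, which are core parts of the respiratory chain and ATP synthase. The ribosomal RNAs of this ribosome come from mitochondrial DNA, while every one of its proteins is encoded in the nucleus, translated in the cytosol and imported. A part of these proteins has a counterpart in bacterial ribosomes, and the others are particular to mitochondria. Transcription is quiescent in SN oocytes, while NSN oocytes still make RNA, and during maturation the stored mRNAs are translated, kept or degraded. The mouse oocyte holds a very large number of mitochondria that the embryo inherits. SMART-seq2 primes on poly(A) tails, so fewer mRNA molecules and shorter tails cannot be told apart in these data, and every value is relative to the other mRNAs of its library.

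Total counts per library lay between 7140416 and 8846287, and 11593 to 13342 genes had a count. Summed FPKM of 13 oocyte markers lay between 12866 and 19873, whereas 16 markers of cumulus and granulosa cells summed to 21.8 to 31.6 FPKM at GV and 34.3 to 56.0 at MII. Of these 16, 9 were under 1 FPKM in every library, among them Foxl2, Lhcgr and Ptx3 at 0. The others reached 1 FPKM or more in some library. The 3 genes found of a list of 5 leukocyte and red blood cell markers summed to at most 3.34 FPKM. NSN GV replicates 1 and 2 were the lowest and the highest GV library for most mitochondrial ribosomal protein genes. Many other genes with short transcripts shared this. NSN GV replicate 2 had the highest level of the 6 GV libraries in 59 of 78 genes (75.6%), against 27.1% of all genes tested and 63.0% of the other genes with transcripts up to 1302 bases, the median of the 78. NSN GV replicate 1 had the lowest level in 53 of 78 (67.9%), against 26.8% and 42.5%. At MII, NSN-MII replicate 3 had the fewest genes detected of all libraries and was lowest of the 7 in 23 of 78 genes (29.5%), against 24.8% of all genes tested and 36.5% of other genes with transcripts up to that length, so it did not stand apart for these genes. The part of these libraries in the results was not tested, and the values without them are given beside the results below.

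mRNAs of the mitochondrial ribosome were a sizeable class at the GV stage and a small one at MII. Their summed FPKM (a level per length of transcript, which can be compared between genes) was 7366, 6275 and 7813 in the SN GV oocytes and 6258, 8839 and 6009 in the NSN GV oocytes. It was 1949, 2009, 2086 and 2054 in the SN-MII oocytes and 2033, 1962 and 1769 in the NSN-MII oocytes. All MII libraries were thus below all GV libraries, and the mean of 7093 ± 1112 (SD, n = 6) at GV was 3.58 times that of 1980 ± 105 (SD, n = 7) at MII. As a share of all counts, the genes took 0.657% at GV and 0.191% at MII. These values include Mrps36, which is not part of the ribosome and had the highest mean at MII, 217 FPKM. The subunit sums that follow leave it out. Both subunits took part: the sum over the 51 large subunit genes was 4280 ± 435 (SD, n = 3) in SN GV and 1201 ± 36.8 (SD, n = 4) in SN-MII oocytes, and that over the 26 small subunit genes was 2443 ± 287 (SD, n = 3) in SN GV and 590 ± 16.9 (SD, n = 4) in SN-MII oocytes.

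**Figure D1:**
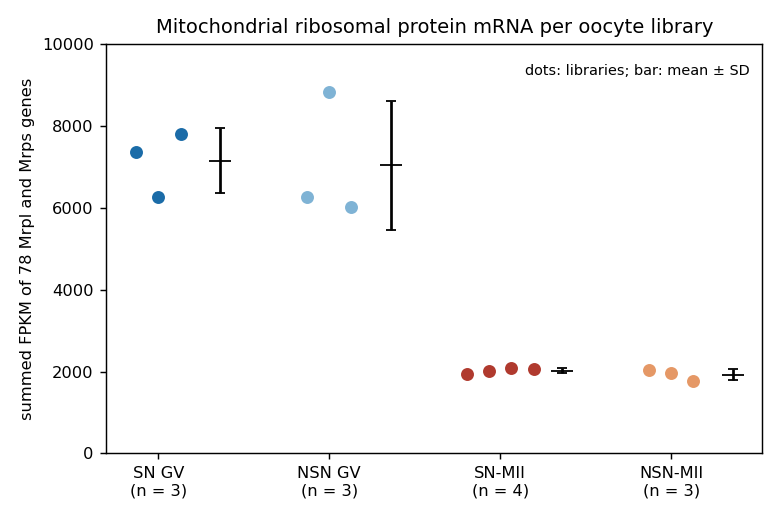
Summed FPKM of the 78 mitochondrial ribosomal protein genes in each of the 13 libraries, by group, with points for single oocytes and the mean and SD of each group. GV values run from 6009 to 8839 and MII values from 1769 to 2086, and NSN GV replicate 2 is the highest point.

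The order of the genes changed along with their sum. At GV the median gene had 66.4 FPKM, and the 5 highest, Mrps33, Mrps36, Mrpl48, Mrpl34 and Mrps22, held 23.5% of the sum. By MII the median had fallen to 9.36 FPKM, and the 5 highest, Mrps36, Mrps14, Mrpl18, Mrpl21 and Mrpl3, held 43.5%. Between the lists of the 10 highest genes at each stage, 4 genes were shared (Mrpl18, Mrpl32, Mrps33 and Mrps36). Across the 78 genes, the Spearman correlation of mean FPKM at GV with that at MII was 0.47, where all values at a stage come from the same libraries. Mrps33, a small subunit protein found in mitochondria alone, was the most abundant at GV, with 491 ± 91.0 FPKM (SD, n = 6) at GV and 77.2 ± 22.6 (SD, n = 7) at MII. Mrps14, a small subunit protein with a bacterial counterpart, had 175 ± 35.0 FPKM at GV and 207 ± 32.8 at MII, and was among the 5 highest at MII alone. The 14 genes whose level was not called lower at MII held 12.6% of the summed FPKM at GV and 46.9% at MII. They were chosen by their change in these same libraries, so a larger share at MII follows from the choice.

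Most of the genes fell as oocytes went from GV to MII, by log2 changes from -0.54 for Mrps2 to -6.10 for Mrpl33 among those called. With edgeR's quasi-likelihood test across all genes and an adjusted p under 0.05, 64 of the 78 genes were lower at MII and 3 were higher, and 11 were not called. Of all 11375 genes tested, 36.9% were called lower and 31.7% higher. The median log2 change (MII minus GV) of the 78 genes was -2.61, against -0.10 for all genes tested. For 58 genes every MII library lay below every GV library and for 2 every MII library lay above, whereas 26.5% of all genes were separated downwards and 20.9% upwards. A log2 change under -1 was found in 58 genes, under -2 in 47 and under -4 in 17. The fall was spread over the whole particle. Large subunit genes numbered 42 lower of 51 with a median of -2.68, and small subunit genes 21 lower of 26 with a median of -2.59. Proteins with a bacterial counterpart (37 lower of 46, median -2.59) and proteins of mitochondria alone (26 lower of 31, median -2.68) were alike in their counts. With libraries scaled by their totals, the median of all genes was -0.39, that of the 78 genes was -2.89, and 69 were called lower and 2 higher.

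**Figure D2:**
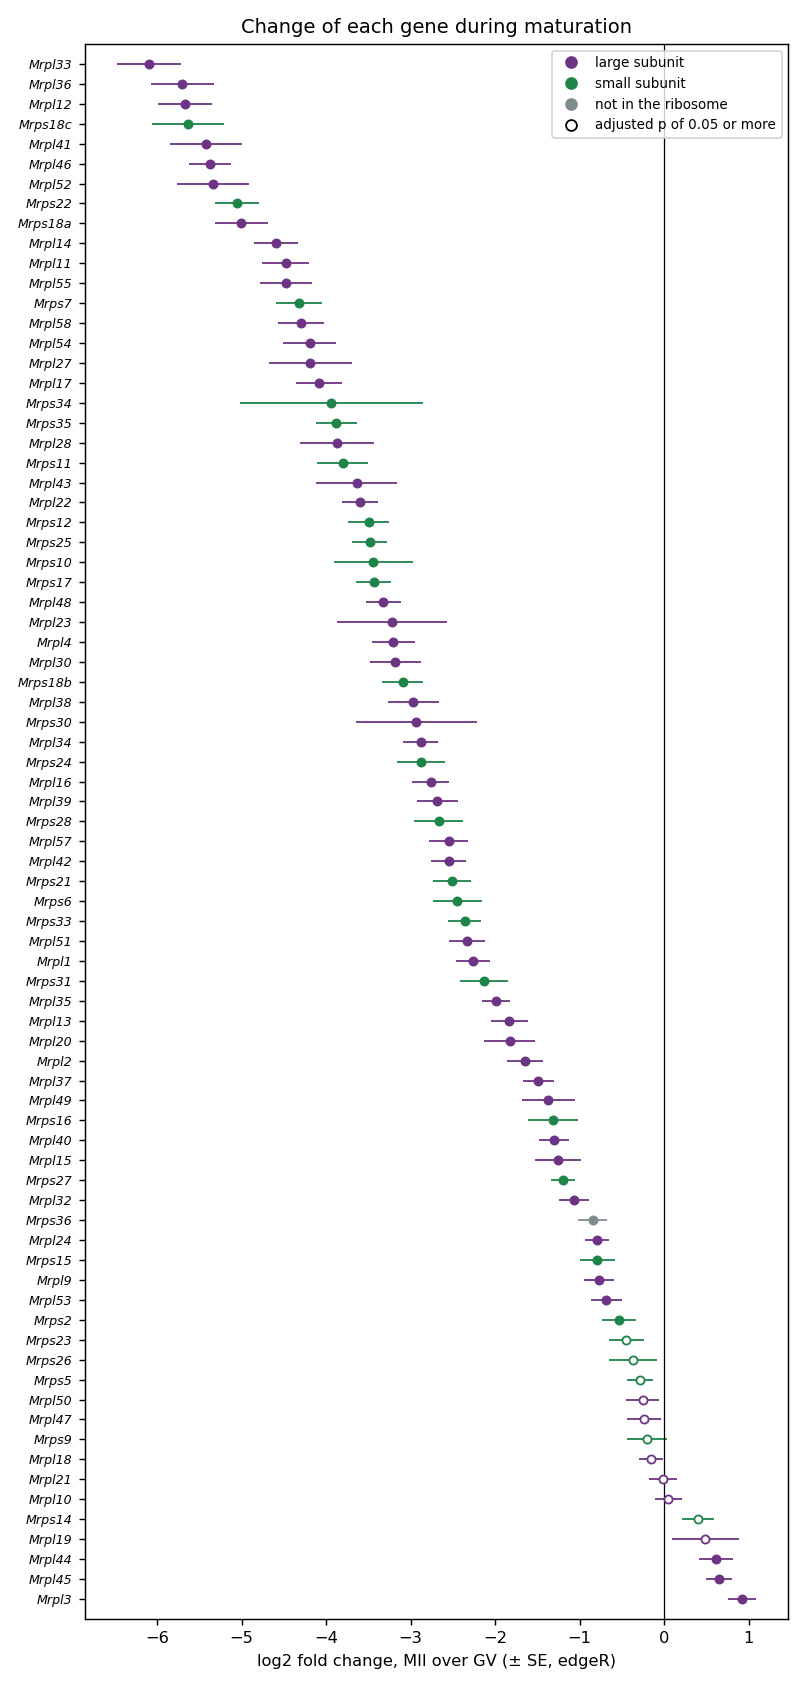
Log2 fold change from GV to MII of each of the 78 genes with its standard error, sorted and coloured by subunit, where open points did not pass an adjusted p of 0.05. The changes run from -6.10 for Mrpl33 to 0.93 for Mrpl3, and both subunits are found along most of it, while the 3 genes called higher are of the large subunit.

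Small proteins of the large subunit led the fall. Mrpl33 (ENSMUSG00000106918, chr5:31596935-31664384, plus strand) encodes a short protein with a bacterial counterpart. Its level in CPM (counts scaled to a common library size, without gene length) was 37.0, 33.5 and 48.9 in the SN GV oocytes and 29.0, 67.1 and 25.7 in the NSN GV oocytes. In the SN-MII oocytes it was 0.796, 0.642, 0.789 and 1.09, and in the NSN-MII oocytes 0.595, 0.495 and 0. No MII library came near a GV library, and the log2 change was -6.10 (SE 0.38, edgeR adjusted p = 6.45e-10). The ratio of the mean CPM at GV to that at MII was 63.8. Mrpl36 (chr13:73328513-73332178, plus strand), another short protein of bacterial type, was at 17.1, 11.001 and 20.8 CPM in SN GV and at 24.6, 26.9 and 16.1 in NSN GV oocytes. Its MII libraries held 0.531, 0.128, 0.131 and 0.136 CPM for SN-MII and 0.714, 0.371 and 0.507 for NSN-MII, which are 1 to 6 counts each. The log2 change of Mrpl36 was -5.70 (SE 0.38, edgeR adjusted p = 1.17e-09). Exons of Mrpl36 overlap Ndufs6 on the other strand and those of Mrpl33 overlap Gm43809 on the same strand, and without strand information reads there cannot be assigned with certainty.

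The stalk of the large subunit, which recruits translation factors to the ribosome, held genes that fell strongly and 1 that was not called. Mrpl12 (chr11:120484613-120489065, plus strand) encodes the repeated stalk protein and has also been described to bind the mitochondrial RNA polymerase. Its CPM was 139, 131 and 159 in SN GV, 135, 179 and 108 in NSN GV, 3.32, 3.47, 3.29 and 0.545 in SN-MII, and 4.29, 2.35 and 1.86 in NSN-MII oocytes. GV and MII libraries were far apart, with a log2 change of -5.67 (SE 0.32, edgeR adjusted p = 2.03e-10). Mrpl10 (chr11:97041560-97049213, plus strand), the protein that anchors the stalk, lay between 76.7 and 89.0 CPM at GV and between 62.7 and 115 at MII. These ranges overlapped, and its change of 0.05 (SE 0.16) was not called, with an edgeR adjusted p of 0.787. The direction of this small change turned with the scaling: it was -0.26 by library totals. Mrpl11 (chr19:4962147-4966999, plus strand), at the base of the stalk, fell from 28.1 to 47.8 CPM at GV to 0.796 to 2.18 at MII, a log2 change of -4.48 (SE 0.28, edgeR adjusted p = 6.84e-10). The 3 proteins touch each other in the ribosome, and their mRNAs ended at mean levels of 47.7, 2.06 and 0.486 FPKM at MII for Mrpl10, Mrpl12 and Mrpl11.

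**Figure D3:**
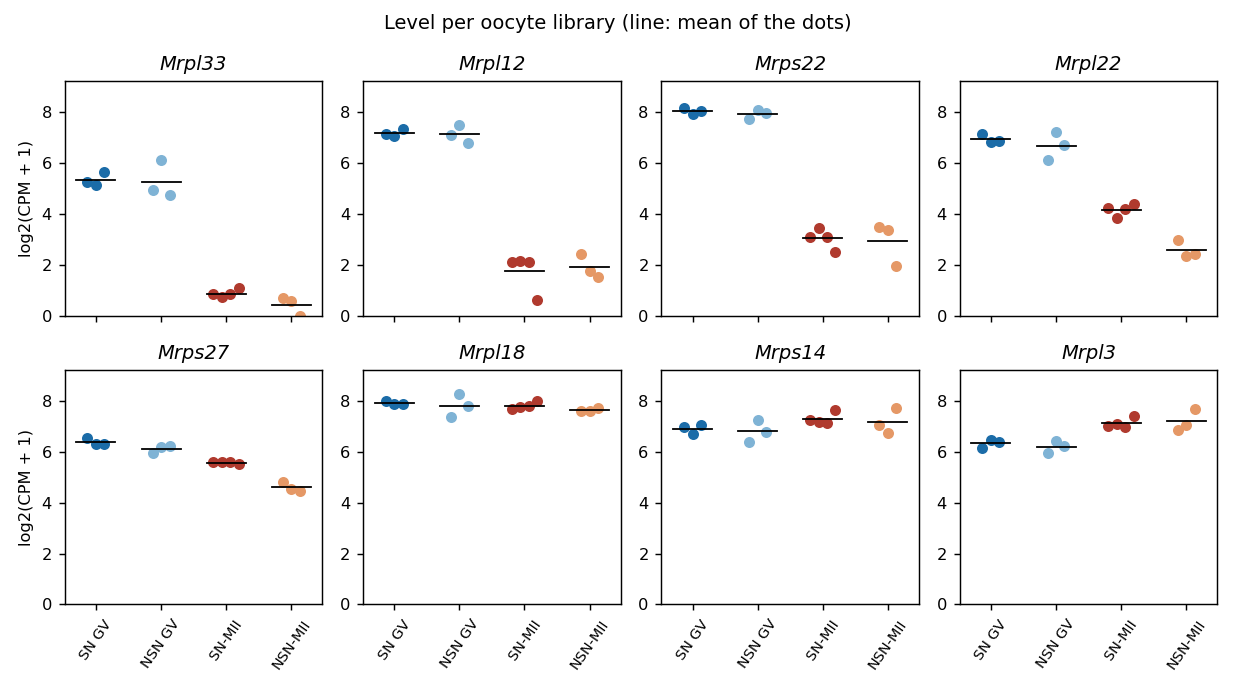
Log2(CPM + 1) in every library for 8 genes, with a line at each group mean. Mrpl33, Mrpl12 and Mrps22 drop far below their GV levels, Mrpl22 and Mrps27 drop further on the NSN side, Mrpl18 and Mrps14 overlap their GV range, and Mrpl3 lies higher in every MII library.

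Other large subunit genes with log2 changes under -5 were Mrpl41, Mrpl46 and Mrpl52, which encode proteins of mitochondria alone. Mrpl46 (chr7:78775236-78783531, minus strand) fell from 50.3 to 73.5 CPM at GV to 0.818 to 2.02 at MII, a log2 change of -5.38 (SE 0.25, edgeR adjusted p = 4.75e-11). Its exons overlap those of Mrps11, itself a small subunit gene, on the other strand, and Mrps11 fell by 3.81 on the log2 scale. Mrpl41 stood at 16.0 to 35.2 CPM at GV and 0 to 1.05 at MII, and Mrpl52 at 22.8 to 44.3 at GV and 0.133 to 1.58 at MII, with log2 changes of -5.42 and -5.34. Mrpl58, known as Ict1, is a peptidyl-tRNA hydrolase that rescues stalled ribosomes and is built into the large subunit. It fell from 62.1 to 117 CPM at GV to 1.91 to 5.69 at MII, a log2 change of -4.30. Members of the polypeptide exit tunnel differed: Mrpl22, which lines it, had a log2 change of -3.60, and Mrpl45, which ties the tunnel exit to the inner membrane, rose by 0.65.

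In the small subunit, Mrps22 and the gene of the decoding centre fell. Mrps22 (chr9:98588730-98601660, minus strand) encodes a protein of mitochondria alone, and variants of its human counterpart are known in ovarian insufficiency. Its CPM was 282, 239 and 258 in SN GV and 207, 267 and 247 in NSN GV oocytes, and its 229 ± 15.3 FPKM (SD, n = 6) at GV was the highest mean among the 8 largest falls. It was 7.56, 9.89, 7.49 and 4.63 in SN-MII and 10.2, 9.28 and 2.87 in NSN-MII oocytes, without overlap, for a log2 change of -5.06 (SE 0.26, edgeR adjusted p = 9.43e-11). Mrps12 (chr7:28739641-28741820, minus strand), the protein at the decoding centre, went from 20.5 to 33.6 CPM at GV to 1.64 to 3.08 at MII, a log2 change of -3.50 (SE 0.24, edgeR adjusted p = 2.41e-09). Mrps33, the most abundant at GV, had 293 to 365 CPM in SN GV, 227 to 412 in NSN GV and 35.0 to 75.3 in MII libraries, a log2 change of -2.36 (SE 0.19, edgeR adjusted p = 1.71e-08). Mrpl48, a large subunit protein that was the third most abundant at GV, had a log2 change of -3.32 (SE 0.21), and in all 13 libraries its count was no whole number, since RSEM shared reads between it and other features.

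Mrps18a, Mrps18b and Mrps18c are related genes that each encode a protein similar to bacterial S18, at separate places: the product of Mrps18a sits in the large subunit, and those of Mrps18b and Mrps18c in the small subunit. All 3 fell, without overlap between stages. Mrps18c (chr5:100798627-100804471, plus strand) went from 31.1 to 69.2 CPM at GV to 0.136 to 2.23 at MII, a log2 change of -5.63 (SE 0.42). Mrps18a (chr17:46110986-46128910, plus strand) went from 50.9 to 90.0 to between 0.398 and 3.41, a change of -5.00 (SE 0.32). Mrps18b (chr17:35910379-35916389, minus strand) went from 80.2 to 115 to between 5.91 and 17.0, a change of -3.09 (SE 0.24), the smallest of the 3. Adjusted p-values of the edgeR test were 5.88e-09, 7.51e-10 and 1.15e-08. Mrps36 (chr13:100735955-100744659, minus strand), the gene of the 2-oxoglutarate dehydrogenase complex, changed less than most: its CPM was 248, 185 and 232 in SN GV, 158, 294 and 189 in NSN GV, 101, 157, 146 and 137 in SN-MII, and 116, 123 and 84.9 in NSN-MII oocytes. The libraries did not overlap by a narrow margin, and the log2 change was -0.85 (SE 0.17, edgeR adjusted p = 0.000364). At 217 ± 47.9 FPKM (SD, n = 7), Mrps36 had the highest mean level of the 78 genes at MII.

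Mrpl3, Mrpl45 and Mrpl44, all of the large subunit, rose. Mrpl3 (chr9:105053239-105079888, plus strand), which reaches towards the peptidyl transferase centre, was at 68.6, 86.9 and 81.7 CPM in SN GV and 60.0, 83.6 and 74.0 in NSN GV oocytes. It was at 128, 134, 124 and 169 CPM in SN-MII and 114, 131 and 203 in NSN-MII oocytes, so that every MII library was above every GV library. Its log2 change was 0.93 (SE 0.17, edgeR adjusted p = 0.000101). Mrpl45 (chr11:97315716-97329920, plus strand), the membrane anchor, was at 56.5 to 88.3 CPM at GV and 94.2 to 138 at MII, also without overlap, with a change of 0.65 (SE 0.15, edgeR adjusted p = 0.00108). Mrpl44 (chr1:79776018-79781445, plus strand), which has a fold like that of RNase III, was at 31.5 to 74.9 CPM at GV and 59.9 to 91.7 at MII. The ranges overlapped through NSN GV replicate 2, and the change was 0.61 (SE 0.20, edgeR adjusted p = 0.0108). Scaled by library totals, 2 of the 78 genes were called higher.

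The 11 genes not called were Mrps5, Mrps9, Mrps14, Mrps23 and Mrps26 of the small subunit and Mrpl10, Mrpl18, Mrpl19, Mrpl21, Mrpl47 and Mrpl50 of the large subunit. Mrpl18 (chr17:12911349-12916345, minus strand), which binds ribosomal RNA, was at 249, 233 and 230 CPM in SN GV, 164, 301 and 219 in NSN GV, 201, 211, 223 and 251 in SN-MII, and 191, 191 and 210 in NSN-MII oocytes. All MII values lay within the GV range, and the change was -0.15 (SE 0.14, edgeR adjusted p = 0.356). Mrps14 (chr1:160195215-160202170, plus strand) was at 81.1 to 149 CPM at GV and 106 to 210 at MII, a change of 0.40 (SE 0.19) whose edgeR adjusted p of 0.0682 became 0.0183 without NSN GV replicate 2 and 0.0298 without NSN-MII replicate 2. Mrpl19 was low in every library, at 0.946 to 8.24 CPM at GV and 2.45 to 9.17 at MII, and its count was rarely a whole number. The test's precision bounds these statements: the median half-width of the 95% interval of a log2 change was 0.47.

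The fall was found in each oocyte type on its own, with no library in common between them. From SN GV to SN-MII oocytes, 63 genes were called lower and 3 higher, where 31.2% and 25.1% of all genes were called. From NSN GV to NSN-MII oocytes, 62 were lower and 2 higher, where 30.8% and 25.4% of all genes were called. The same 62 genes were lower, and the same 2 higher, in both. Medians of the log2 changes were -2.61 and -2.67. The ratio of summed FPKM between stages was 3.53 for SN and 3.66 for NSN oocytes. Leaving out single libraries gave 63 to 65 genes lower and 3 or 4 higher over both types. Without NSN GV replicate 2 the median was -2.46, without NSN GV replicate 1 it was -2.69, and without NSN-MII replicate 3 it was -2.52.

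Genes that work with the mitochondrial ribosome without being part of it fell in smaller shares than the ribosomal proteins, though no test compared the lists. Ribosomal proteins without an Mrp symbol fell in a like share (80.0%, against 82.1% of the 78 genes). Of 5 ribosomal proteins without an Mrp symbol, Aurkaip1 (-4.67), Gadd45gip1 (-3.94), Chchd1 (-3.19) and Dap3 (-1.22) fell on the log2 scale and Ptcd3 rose (0.67), with a median of -3.19. Among 18 tested translation factors, 10 fell and 5 rose, with a median of -1.97: Slirp, which stabilises mitochondrial mRNAs with Lrpprc, fell by 5.21, while the elongation factor Gfm1 (1.17), the initiation factor Mtif2 (1.03) and the amidotransferase subunit Gatb (1.14) rose. The 26 tested assembly and ribosomal RNA modification factors had 13 lower and 5 higher with a median of -0.58. In that list the pseudouridine synthase gene Rpusd3 had the largest fall (-4.64), and the GTPase Gtpbp10 (1.06), the methyltransferase Mettl15 (1.06) and Afg3l2 (0.71), a subunit of the protease that matures Mrpl32, rose. Mrpl32 itself fell by 1.07 (SE 0.18). Of 12 tested genes of mitochondrial DNA transcription and replication 7 fell and 2 rose, with a median of -1.33. The RNA polymerase Polrmt (-3.88) and the packaging factor Tfam (-3.16) fell, the transcription factor Tfb2m rose (1.54), and Mterf2 rose as well (4.64), from 0 to 1.02 CPM at GV to 0 to 10.5 at MII.

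The larger protein complexes moved with the mitochondrial ribosome. Of 85 tested genes of the cytosolic ribosome 80 were called lower and 1 higher, with a median of -3.84, and of 76 genes of the respiratory chain and ATP synthase 69 were lower and 5 higher, with a median of -3.00. At GV, FPKM summed over all listed genes was 16516.5 to 28896.7 for the cytosolic ribosome. It was 10764.4 to 20060.5 for the respiratory chain and ATP synthase. Transcript lengths of these lists were not compared with those of the mitochondrial ribosome. Messenger RNAs encoded by mitochondrial DNA, the templates of the mitochondrial ribosome, were not analysed here.

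**Figure D4:**
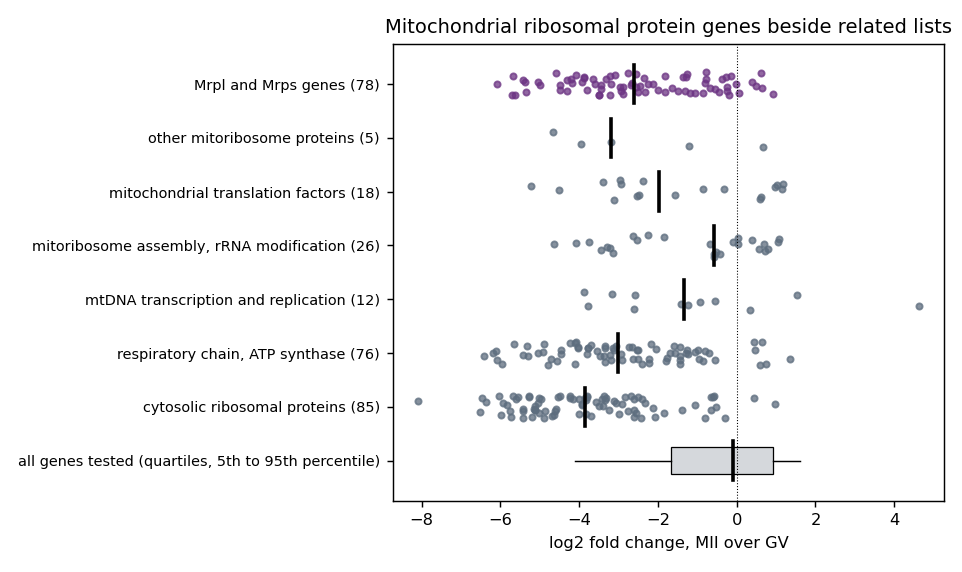
Log2 fold change from GV to MII of single genes, by list, with a bar at each median, beside a box for the quartiles of all genes tested and whiskers to their 5th and 95th percentiles. Mitochondrial ribosomal proteins (median -2.61) lie between the respiratory chain (-3.00) and the translation factors (-1.97), and the assembly factors (-0.58) lie nearer to the median of all genes (-0.10).

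Transcript length moved with the change. Each gene was given its APPRIS principal transcript in GENCODE M21 (mm10), and the one with the longest coding part where there were several. Genes called lower had a median transcript of 1148 bases, those not called 2114 and those called higher 2431. Of the 39 genes with transcripts at or under the median of 1302 bases, 37 were lower, with a median change of -3.20. Of the 39 with longer transcripts, 27 were lower, with a median of -1.37. The other genes tested had the same order: of 1150 with transcripts up to 1302 bases 67.1% were called lower, with a median of -1.90, and of 10009 longer ones 33.0%, with a median of 0.06. Spearman's correlation of change with length was 0.38 across the 78 genes and 0.39 across 11159 others, where genes share their libraries. The longer other genes reach far greater lengths than the 78 genes do, and nearer to them, other genes of 1287 to 1760 bases had a median of -1.17 and those of 1761 to 2176 bases a median of -0.76. No test compared genes of like length.

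**Figure D5:**
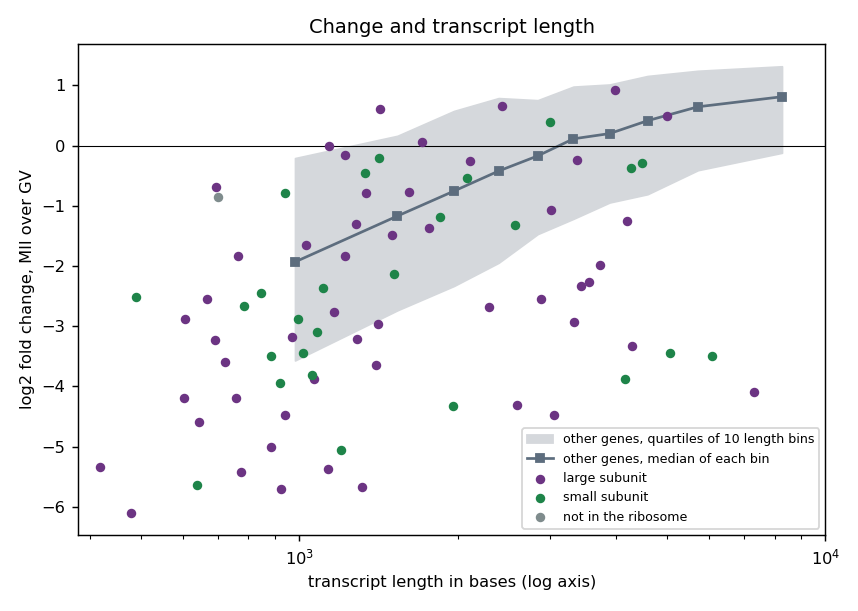
Log2 fold change from GV to MII of the 78 genes against transcript length in bases on a log axis, with the median and quartiles of the other genes tested in 10 bins of length. Short transcripts lie lowest in both: the medians of the other genes run from -1.93 in the shortest bin to 0.81 in the longest.

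Promoters of these genes often share sites for factors that control nuclear genes of mitochondria, among them NRF1, ETS family proteins (GABP) and YY1. RefSeq windows of 300 bases (GRCm38.p6, 250 bases before to 50 after the annotated start) were found for 69 of the 78 genes, in 75 windows. The ETS motif CCGGAAG, searched on both strands, was in 26 windows (34.7%), against 17.4% of the windows of all genes tested. AAGATGGC, the YY1 motif, was in 12 (16.0%), against 4.49%, and GCATGCGC, the NRF1 core, in 8 (10.7%), against 5.36%. Motifs were found both in genes that fell and in genes that did not: Mrpl33 and Mrpl22 held ETS and NRF1 motifs, Mrps18a ETS and YY1 motifs, and Mrpl3, with the largest rise, an ETS motif. The windows of these 4 genes are printed 5′ to 3′ on the gene's strand (all plus) to show a strongly falling gene, the gene that differed most between the oocyte types at MII, a paralog with a YY1 motif and the rising gene, with motifs on either strand in capitals. They lie at chr5:31613701-31614000 (Mrpl33), chr11:58171414-58171713 (Mrpl22), chr17:46110754-46111053 (Mrps18a) and chr9:105053018-105053317 (Mrpl3).
Mrpl33: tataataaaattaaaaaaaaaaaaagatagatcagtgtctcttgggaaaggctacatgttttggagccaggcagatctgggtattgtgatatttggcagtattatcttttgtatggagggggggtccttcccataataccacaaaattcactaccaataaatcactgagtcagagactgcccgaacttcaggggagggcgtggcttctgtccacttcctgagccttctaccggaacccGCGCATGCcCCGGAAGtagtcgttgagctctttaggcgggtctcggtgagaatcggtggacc
Mrpl22: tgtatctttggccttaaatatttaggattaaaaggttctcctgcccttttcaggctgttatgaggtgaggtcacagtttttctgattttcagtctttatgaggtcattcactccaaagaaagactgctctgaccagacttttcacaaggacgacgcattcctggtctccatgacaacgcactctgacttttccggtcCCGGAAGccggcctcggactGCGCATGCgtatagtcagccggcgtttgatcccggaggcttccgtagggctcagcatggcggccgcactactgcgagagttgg
Mrps18a: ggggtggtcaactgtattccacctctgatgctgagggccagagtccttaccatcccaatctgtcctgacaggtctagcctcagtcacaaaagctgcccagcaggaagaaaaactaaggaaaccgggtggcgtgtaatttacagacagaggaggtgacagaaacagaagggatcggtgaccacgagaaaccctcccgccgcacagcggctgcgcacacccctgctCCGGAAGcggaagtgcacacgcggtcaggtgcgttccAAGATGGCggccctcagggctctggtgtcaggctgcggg
Mrpl3: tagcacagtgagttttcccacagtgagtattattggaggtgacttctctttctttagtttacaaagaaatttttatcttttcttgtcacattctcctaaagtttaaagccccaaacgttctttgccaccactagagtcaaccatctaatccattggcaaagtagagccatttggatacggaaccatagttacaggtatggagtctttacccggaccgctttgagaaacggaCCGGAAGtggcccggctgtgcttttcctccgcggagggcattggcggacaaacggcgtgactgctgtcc
A match is a run of letters and not a measured binding site, and the oocyte stages were not told apart by it.

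During maturation, mRNAs that carry a cytoplasmic polyadenylation element near the 3′ end, written TTTTAT or TTTTAAT, can gain a longer poly(A) tail. The last 100 bases of the 3′ untranslated region were searched on the strand of the gene. The element was found in 9 of 64 genes called lower (14.1%), 2 of 11 not called and 1 of 3 called higher. Among other genes tested it was found in 10.5% of those called lower, 19.6% of those not called and 29.4% of those called higher. The holders were mixed: Mrpl11 and Mrpl14 fell by 4.48 and 4.60 on the log2 scale, Mrps18b by 3.09 and Mrps2 by 0.54, while Mrps14 and Mrpl50 were not called and Mrpl44 rose. Their windows of 30 bases (mm10, GENCODE M21, on the strand of the gene, element in capitals) are shown because they place the same letters in genes that went opposite ways. The windows are chr19:4966969-4966998 (Mrpl11, plus), chr17:45698461-45698490 (Mrpl14, plus), chr17:35910395-35910424 (Mrps18b, minus), chr2:28471131-28471160 (Mrps2, plus), chr1:160202071-160202100 (Mrps14, plus), chr4:49512647-49512676 (Mrpl50, minus) and chr1:79781349-79781378 (Mrpl44, plus).
Mrpl11: tacaattaaaacTTTTATtacgtgtataat
Mrpl14: gcagaataaatgTTTTAATgtatgttttct
Mrps18b: tcctggctcagcTTTTATacaataaagctg
Mrps2: agaattgtactaTTTTAATatatgtttaca
Mrps14: tcccaggtTTTTATgttctatgcatctact
Mrpl50: aatgaaattcacTTTTATgtatcactttat
Mrpl44: cagctagatgtaTTTTATtccctccagctt
In Mrpl11 the element ends 13 bases before the end of the transcript and in Mrps14 86 bases before it.

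At the GV stage the mitochondrial ribosome did not separate the NSN from the SN type. None of the 78 genes was called, as none of 10839 genes tested was (0.0%), and none had an unadjusted p under 0.05 in the edgeR test, against 1.75% of all genes. DESeq2 called none either. Log2 differences (NSN minus SN) ran from -0.41 to 1.86, with 33 above and 45 below 0 and a median of -0.03. The highest, of Mrps34, rested on 0.255, 0 and 2.75 CPM in SN and 8.09, 1.75 and 0.759 in NSN oocytes and had an SE of 1.32. For 66 genes the 95% interval lay within a log2 difference of 1 in either direction, with a median half-width of 0.48. Oocytes did not overlap in 3 of the 78 genes, all lower in NSN, against 2.92% of all genes in that direction. The count was thus near the share of all genes. The share of all genes separated upwards is not given here. Mrpl16, of the large subunit, was at 57.8, 48.6 and 54.1 CPM in SN and 34.4, 45.1 and 39.97 in NSN oocytes, a difference of -0.41 (SE 0.20). Mrps24, of the small subunit, was at 63.5, 55.2 and 69.1 in SN and 49.5, 39.97 and 49.97 in NSN oocytes, a difference of -0.41 (SE 0.22). Mrps27 differed by -0.27 (SE 0.18). NSN GV replicates 1 and 2 were the lowest and the highest library for most of these genes. Without replicate 2 the median difference was -0.22. In that edgeR fit 5 of the 78 genes had an unadjusted p under 0.05, against 335 of all 11162 genes tested. Without replicate 1 the median difference was 0.09, and no gene was called in either case.

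At MII the types were not told apart by these genes at an adjusted p under 0.05 either, and Mrpl22 and Mrps27 had the smallest p. Of 68 genes that passed the filter on low counts, none was called at an edgeR adjusted p under 0.05, where 0.259% of 10028 genes were, and 5 had an unadjusted p under 0.05, against 9.38% of all genes. Differences ran from -1.71 to 1.26, with 34 on each side of 0. Mrpl22 (chr11:58171661-58179565, plus strand), the exit tunnel protein, was at 17.4, 13.2, 17.1 and 19.8 CPM in SN-MII and at 6.90, 4.08 and 4.39 in NSN-MII oocytes. The groups lay apart, with a log2 difference of -1.71 (SE 0.34, edgeR adjusted p = 0.068). At GV the same gene was at 140, 111 and 114 CPM in SN and 67.7, 145 and 103 in NSN oocytes, a difference of -0.20 (SE 0.25) with overlap. Mrps27 (chr13:99344786-99415562, plus strand), a pentatricopeptide repeat protein of the small subunit, was at 46.6, 46.6, 47.1 and 44.7 CPM in SN-MII and at 26.7, 21.9 and 21.1 in NSN-MII oocytes. These groups lay apart as well, with a difference of -0.99 (SE 0.21, edgeR adjusted p = 0.0908). At GV, Mrps27 was at 92.3, 77.95 and 77.95 CPM in SN and 61.0, 70.6 and 72.5 in NSN oocytes.

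The calls of this pair of genes depended on the test. DESeq2 called both lower in NSN-MII oocytes (adjusted p = 0.000347 for Mrpl22 and 0.000962 for Mrps27), where it called 1.12% of all genes lower. A fit of all 4 groups with edgeR called both (adjusted p = 0.0132 and 0.0261), as did the fit without NSN-MII replicate 3 (0.0399 and 0.0491). Calls over all genes rose in these fits too. The main fit called 25 of 10028 genes lower, the fit of all 4 groups 60 of 11375, and that without replicate 3 127 of 10420. Neither was called by edgeR with library totals (0.127 and 0.185) or with DESeq2's size factors (0.0653 and 0.0907), or by limma on log2(FPKM + 1) (0.054 and 0.169). Nor was either called by edgeR with the replicate number as a block (0.349 and 0.449). In that fit SN-MII replicate 4, the only oocyte with its number, added nothing to the comparison, so fewer oocytes bore on it. Over the fits that left out 1 library each, the adjusted p of edgeR went from 0.0399 to 0.251 for Mrpl22 and from 0.0491 to 0.275 for Mrps27. Both were lower in all 3 NSN-MII than in all 4 SN-MII oocytes.

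Of the tested genes, 5 were separated downwards in NSN-MII oocytes (Mrpl22, Mrps27, Mrps21, Mrps31 and Mrpl32), where 5.57% of all genes were, and 2 upwards (Mrpl19 and Mrpl20), where 4.61% were. Mrps31 was at 33.2, 25.6, 35.0 and 29.4 CPM in SN-MII and 22.4, 18.6 and 4.90 in NSN-MII oocytes, a difference of -0.99 (SE 0.42, edgeR adjusted p = 0.464). Its lowest value came from replicate 3, the library with the fewest genes, and without that library the difference was -0.58 (SE 0.25, edgeR adjusted p = 0.258). Mrpl32, the protein cleaved by the m-AAA protease before it enters the ribosome, was at 77.5, 89.8, 86.1 and 112 CPM in SN-MII and 71.1, 61.0 and 73.8 in NSN-MII oocytes, a difference of -0.42 (SE 0.19, edgeR adjusted p = 0.51). Mrpl19 was at 3.32, 3.60, 3.29 and 2.45 CPM in SN-MII and 9.17, 5.196 and 4.90 in NSN-MII oocytes, a difference of 1.02 (SE 0.45, edgeR adjusted p = 0.51). For 32 of the 68 genes the 95% interval lay within a log2 difference of 1, and the median half-width was 0.68. These intervals are not adjusted for the number of genes tested. Differences larger than that half-width could therefore go uncalled, as those of Mrpl22 and Mrps27 did. The 10 genes not tested were Mrpl23, Mrpl27, Mrpl33, Mrpl36, Mrpl41, Mrpl52, Mrps10, Mrps18c, Mrps30 and Mrps34, which had fallen to at most 2.23 CPM in every MII library.

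Whether the change at maturation differed between the types was tested as an interaction in the fit of all 13 oocytes. None of the 78 genes was called, where 0.0176% of 11375 genes were, and DESeq2 called none either. In the edgeR test, 3 had an unadjusted p under 0.05, where 5.33% of all genes had: Mrpl22 (-1.502, SE 0.41, adjusted p = 0.387), Mrps27 (-0.71, SE 0.28, adjusted p = 0.823) and Mrpl1 (0.87, SE 0.39, adjusted p = 0.905). Mrpl22 changed by -2.85 on the log2 scale in SN and -4.35 in NSN oocytes, and Mrps27 by -0.84 and -1.55. Mrpl1, a large subunit protein of the stalk on the other side of the subunit, changed by -2.69 and -1.82. The median half-width of an interaction's 95% interval was 0.90.

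Counting limits touched some of these genes. Exons of 33 genes overlap another annotated gene, 28 of them on the other strand and 8 on the same strand, and these include Mrpl43 with Twnk and Mrpl18 with Tcp1. Of the 45 genes without overlap 39 were called lower, with a median of -2.55, close to the -2.61 of all 78. RSEM shared reads between features for some genes: 48 genes had whole counts in every library, and 18 had values that were not whole in over 25% of the libraries, among them Mrpl15, Mrpl24, Mrpl35 and Mrpl47 in all 13.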

How the data were processed

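Single mouse oocytes were sequenced in 13 libraries of 4 groups, taken from the sample labels. The authors trimmed reads with Trim Galore 0.4.4, mapped them to mm10 with Bowtie2 2.3.5 and estimated counts and FPKM with RSEM 1.2.28. Expected counts were deposited by the authors in 1 table for each stage, and FPKM values were deposited by the authors for all libraries. FPKM values are scaled by gene length and library size. Reads had no molecular identifiers and no strand step is named. Standard errors of the edgeR fits include the spread between oocytes of a group.

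Expected counts were rounded to whole numbers, filtered with filterByExpr, scaled by TMM and tested with edgeR 4.0.16 (R 4.3.3) by the quasi-likelihood test, two-sided, with Benjamini-Hochberg adjustment over all genes tested. Calls were made at adjusted p-values below 0.05. MII was set against GV in 1 fit of all groups, where the types had equal weight, and NSN against SN within each stage. Intervals are normal, from the standard error. No pair of libraries was a copy. The 78 genes and the gene lists were chosen with earlier results of these data known. Genes named with values were the 6 most abundant, the 8 largest rises and falls without overlap, the 5 smallest p of each comparison of types, the Mrps18 paralogs, Mrps36, the stalk, the tunnel exit, the decoding site and the genes not tested at MII. Mrps2, Mrps11, Mrpl14, Mrpl50, Mrpl58 and the genes of the other lists were named in addition, after their values were known. Alternatives were DESeq2 1.42.0, its size factors, library totals, no filter, limma 3.58.1 on log2(FPKM + 1) and log2(FPKM + 0.1), a fold minimum of 1.5, the replicate number as a block, all groups in 1 fit and each library left out, and TMM without these genes and lists, an alternative chosen after seeing the data. The fits were checked on simulated data. No column was left unused, and all 78 symbols were found in GENCODE M21.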

Additional observations from a re-analysis of the deposited data

Results flagged for a closer look

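Within the SN-MII group, the only one with 4 oocytes, the 36 genes named by rule were checked for an oocyte far from the others by Dixon's test, which chance passes in about 1 of 20 groups. It found 6. Mrpl36 was at 0.531 CPM in replicate 1 and at 0.128 to 0.136 in the others, which is 4 counts against 1 in each other library. Mrpl12, the stalk protein, was at 0.545 CPM in replicate 4 and at 3.29 to 3.47 in the others. Mrps18b was at 7.23 CPM in replicate 4 and at 16.1 to 17.0 in the others. Mrpl16 was at 11.9 CPM in replicate 4 and at 5.65 to 6.70 in the others. Mrpl44 was at 76.2 CPM in replicate 1 and at 63.4 to 63.8 in the others. Mrps34 was at 0.128 CPM in replicate 2 and at 0 in the others, which is 1 count, and beside libraries at 0 any count passes this test. Replicate 4 gave 3 of these, and no cause was tested.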

How the results depend on the processing

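Of 150 alternatives for the counts of called genes, 146 stayed within 1.5 times the main count. The exception was NSN against SN at MII, where none was called by edgeR: DESeq2 called 2 genes, the fit without a filter 1, the fit of all 4 groups 2, and leaving out 1 library gave 0 to 2, with 2 without NSN-MII replicate 3. These were Mrpl22 and Mrps27, except without a filter, where Mrpl22 alone was called (edgeR adjusted p = 0.0389). Calls over all genes moved as well. The main fit called 25 genes lower, DESeq2 165, the fit without a filter 75, that of all 4 groups 60 and that without NSN-MII replicate 3 127. MII against GV stayed at 63 to 65 genes lower and 3 to 4 higher when single libraries were left out, at 59 to 67 called for SN oocytes and at 60 to 64 for NSN oocytes, and GV and the interaction stayed at 0. Of 462 alternatives for single genes at maturation, 450 kept direction and call. Mrpl10, which was not called, changed sign: its log2 change was -0.26 by library totals, -0.12 with limma on log2(FPKM + 1), with or without the filter, -0.13 on log2(FPKM + 0.1), -0.016 with the replicate block, and -0.11 to 0.10 with single libraries left out, with -0.0014 without SN-MII replicate 4. Mrpl18 was called lower by library totals (-0.45) and by limma (-0.27), and Mrps14 higher without NSN GV replicate 2 (0.53) or NSN-MII replicate 2 (0.50). The median of all genes moved from -0.10 to -0.14 with DESeq2's size factors and -0.39 with library totals. With the replicate number as a block, 64 genes were lower and 3 higher at maturation, 61 lower and 1 higher (in place of 3) in SN oocytes, 61 lower and 2 higher in NSN oocytes, and 0 were called between the types or in the interaction, with adjusted p-values at MII of 0.349 for Mrpl22 and 0.449 for Mrps27. The labels do not say what a replicate number stands for. Deviations of same-numbered oocytes correlated by -0.419 at lowest and 0.206 at highest over pairs. These values cannot show whether such oocytes share an animal or a day. SN-MII replicate 4 has no oocyte of like number, so it added nothing to the comparisons with the block. Low levels limit the MII values: 69 to 75 of the 78 genes had over 3 counts in an MII library, against 77 to 78 at GV.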
